A study of Homo sapiens with 4 samples.

Results

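A cassette exon is an internal exon that some transcripts of a gene keep and others leave out, and the exons described here are those of 51 to 150 nt, the length of most internal exons of human genes, in HEK293T cells that carried a vector for SF3B1. They were found in the authors' junction counts by their geometry: a skip junction shares its start with one inclusion junction and its end with the other, and 51 to 150 nt lie between the inclusion junctions. Inclusion reads are the rounded mean of the 2 inclusion junctions, and an exon was kept when inclusion and skip reads summed to at least 20, with neither at 0, in each of the 4 libraries. This gave 48840 exons, of 92777 with a length of 10 to 500 nt, and 47455 of them lay in 9257 genes named by annotation. The exons were thus selected on their junction reads in the 4 libraries, not on a difference between them, but exons with no skip read in any 1 library are not among them.

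HEK293T is a line derived from human embryonic kidney cells. It was transfected with SF3B1-R625H or SF3B1-K666T (1000 ng of plasmid each), with SF3B1-K700E (2000 ng), or with wildtype SF3B1 (WT), for which the sources used here give no amount. All cells keep their own SF3B1 gene, so each mutant library holds RNA made beside the unmutated protein, and a smaller share of transfected cells and a smaller change per cell cannot be told apart. There was 1 library per vector, so every test compares 2 libraries and no difference has a replicate check.

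SF3B1 is the largest subunit of the SF3b complex, which holds the U2 snRNP on the branch point of an intron before its 3' end, the acceptor, is chosen. Recognition of an internal exon needs its acceptor and the donor at its other end to be seen together, so that weak recognition of either can end in skipping. A coding exon whose length is a multiple of 3 can be left out without shifting the reading frame. An exon of another length shifts it, and some exons bring a stop codon that sends the transcript to nonsense-mediated decay; such exons control the level of many splicing regulators.

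The sequences of 14 coding exons that carry the differences described below are given first, as examples picked after their values were seen. All are in the sense of the gene, from the GENCODE release 29 transcript that holds the exon, with hg19 positions from the junction files; capitals mark the first 2 and the last 3 bases, which touch the acceptor and the donor. The first 6 were included more often in at least 1 mutant library, and each has a length that is a multiple of 3, although POLB, with 58 nt, also rose and is not printed: ECT2 at chr3:172473273-172473365 (plus strand, 93 nt, 24.7% G or C); STAG2 at chrX:123224704-123224814 (plus strand, 111 nt, 45.9% G or C); FMR1 at chrX:147019618-147019680 (plus strand, 63 nt, 50.8% G or C); BCOR at chrX:39930890-39930943 (minus strand, 54 nt, 42.6% G or C); MFF at chr2:228207461-228207535 (plus strand, 75 nt, 48% G or C); KTN1 at chr14:56139890-56139973 (plus strand, 84 nt, 33.3% G or C).
ECT2: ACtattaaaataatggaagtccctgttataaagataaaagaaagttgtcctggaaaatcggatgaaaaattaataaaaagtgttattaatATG
STAG2: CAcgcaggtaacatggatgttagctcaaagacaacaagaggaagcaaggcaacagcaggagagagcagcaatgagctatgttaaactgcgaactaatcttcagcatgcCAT
FMR1: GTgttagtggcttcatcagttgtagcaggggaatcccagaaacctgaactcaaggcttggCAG
BCOR: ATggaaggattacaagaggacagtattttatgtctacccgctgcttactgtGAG
MFF: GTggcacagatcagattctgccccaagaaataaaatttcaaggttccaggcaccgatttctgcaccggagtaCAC
KTN1: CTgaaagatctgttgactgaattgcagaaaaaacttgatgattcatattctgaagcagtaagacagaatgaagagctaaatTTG

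The other 8 were included less often in at least 1 mutant library: EIF4A2 at chr3:186502751-186502890 (plus strand, 140 nt, 49.3% G or C); TBCE at chr1:235564818-235564902 (plus strand, 85 nt, 49.4% G or C); RNF4 at chr4:2502386-2502465 (plus strand, 80 nt, 45% G or C); ACVR2A at chr2:148680542-148680680 (plus strand, 139 nt, 47.5% G or C); TRMT13 at chr1:100605738-100605807 (plus strand, 70 nt, 32.9% G or C); FNIP1 at chr5:131046271-131046354 (minus strand, 84 nt, 60.7% G or C); GAS8 at chr16:90102041-90102095 (plus strand, 55 nt, 49.1% G or C); CLSTN1 at chr1:9797556-9797612 (minus strand, 57 nt, 45.6% G or C). In this group FNIP1 and CLSTN1 have a length that is a multiple of 3, and the other 6 exons do not.
EIF4A2: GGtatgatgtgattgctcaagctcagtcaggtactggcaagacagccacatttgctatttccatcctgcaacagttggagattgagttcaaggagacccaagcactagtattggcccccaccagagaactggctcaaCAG
TBCE: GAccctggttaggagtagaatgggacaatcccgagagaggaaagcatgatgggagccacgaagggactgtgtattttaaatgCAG
RNF4: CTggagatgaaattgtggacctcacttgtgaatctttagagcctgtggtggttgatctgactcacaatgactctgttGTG
ACVR2A: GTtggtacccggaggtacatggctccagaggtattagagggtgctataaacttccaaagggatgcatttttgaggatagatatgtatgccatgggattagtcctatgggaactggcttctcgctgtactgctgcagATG
TRMT13: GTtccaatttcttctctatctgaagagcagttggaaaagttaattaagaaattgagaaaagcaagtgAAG
FNIP1: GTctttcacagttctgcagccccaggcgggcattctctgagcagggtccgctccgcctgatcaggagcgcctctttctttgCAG
GAS8: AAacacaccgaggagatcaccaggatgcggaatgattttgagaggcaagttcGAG
CLSTN1: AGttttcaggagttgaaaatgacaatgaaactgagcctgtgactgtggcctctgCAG

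For most exons that meet the rule, no annotated internal exon was found. An annotated internal exon with the same 2 ends was found for 21785 of the 48840 exons (44.6%). The other 27055 were unannotated, and of these 10969 differed from an annotated site only at the acceptor, 4650 only at the donor, and 11162 at both ends. In the remaining 274 both ends were annotated sites, but no annotated internal exon had that pair of ends. The match to hg19 did not place every gene. Among genes with more than 1 intron it placed 15855 of 18228 that code for protein, and 18777 of 28088 in total. An exon of a gene that was not placed counts as unannotated here, even where a known transcript holds it. Of the unannotated exons 1385 had no named gene. The 2 inclusion junctions were within 2-fold of each other in every library, called even from here on, for 12590 (57.79%) of the annotated and 2586 (9.558%) of the unannotated exons. ABCD4, a vitamin B12 transporter of the lysosome, shows what the difference means. Its annotated exon of 95 nt had 65.3, 66.2 and 68.9% inclusion in R625H, K666T and K700E, against 82% in WT. An unannotated exon of 109 nt at the same place, which begins 14 nt upstream, also met the rule and had 46.5, 50 and 54.9%, against 69.6%. Its own acceptor junction had 0, 3 and 1 reads in the mutant libraries and 0 in WT, while the donor junction it shares with the annotated exon had 133, 143 and 166 reads, against 191. The longer exon thus repeats the reads of the shorter one. Of all 48840 exons 37412 (76.6%) shared a junction with another, against 2901 (23.04%) of the 12590 annotated even exons, which are used for named results.

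The annotated even exons lay in 6511 genes. By the transcripts that hold them, 10640 were coding over their whole length, 510 partly coding, 562 untranslated, 464 in transcripts marked for nonsense-mediated decay only and 414 in other transcripts only. They were mostly kept: the median inclusion was 97.04, 96.79 and 96.62% in R625H, K666T and K700E, against 97.68% in WT. Decay exons were at the other end, with medians of 4.31, 4.26 and 4.37%, against 3.26%. The median over all 48840 exons was 85.31, 84.89 and 83.68%, against 87.39%. Exons whose poorest library had 20 to 24 reads had a median of 41.67% in WT, and those at 15 to 19 reads, just outside the rule, 44.44%.

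Length and level went together in coding exons. Of the 10640 coding even exons, 43.67% had a length that is a multiple of 3. The share was 80.97% of the 226 exons with a mean inclusion of at most 10% over the 4 libraries and 81.99% of the 161 exons between 10 and 30%. It was 62% between 50 and 70%, 47.78% between 70 and 90% and 39.37% between 95 and 99%. Of the 464 decay exons 28.45% had such a length, and 326 of them held the stop codon of the transcript. Exons of these levels thus differ in what skipping does to the reading frame, a property the choice of exons did not use.

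**Figure D1:**
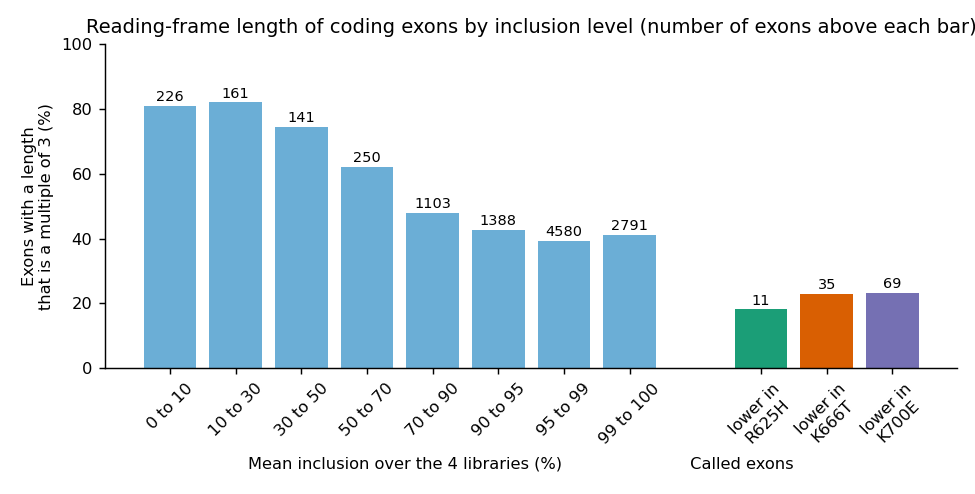
Percent of coding even exons whose length is a multiple of 3, in bins of mean inclusion over the 4 libraries (blue bars) and in the exons called lower in each mutant library than in WT (coloured bars); the number above a bar is its exon count. The share is 80.97% at the lowest inclusion and 41.1% at the highest, and it is 18.18, 22.86 and 23.19% in the called exons.

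Inclusion was lower in the mutant libraries than in WT more often than higher. An exon was called when Fisher's exact test on its inclusion and skip reads had a Benjamini-Hochberg adjusted p under 0.05 over all 92777 exons and the levels were at least 10 percentage points apart; "rose" and "fell" are used of called exons. In R625H 96 of the 48840 exons fell and 73 rose, beside 0.259% lower and 0.15% higher among all exons of 10 to 500 nt. In K666T 201 fell and 81 rose, beside 0.5% and 0.171%. In K700E 471 fell and 98 rose, beside 1.09% and 0.231%. As shares these are 0.1966, 0.4115 and 0.9644% lower and 0.1495, 0.1658 and 0.2007% higher, at or under the values for all lengths, so the counts are not a property of this length class. In R625H the order turned under 5 other settings, such as 48 lower and 59 higher with the smaller inclusion junction as inclusion reads. A z test that allows spread beyond counting error (rho 0.01) left 15 lower and 18 higher in R625H, 17 and 12 in K666T, and 26 and 14 in K700E. Which exons these are is not given here. The calls of the exons named below rest on Fisher's exact test, which covers counting error only, and most calls were lost under the z test. The 3 comparisons share the WT library, and K700E also differs in plasmid amount, which cannot be told apart from the mutation.

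Among the annotated even exons, 11 fell and 9 rose in R625H, beside 0.128% lower and 0.0801% higher among annotated even exons of all lengths. In K666T 40 fell and 13 rose, beside 0.347% and 0.0961%, and in K700E 76 fell and 9 rose, beside 0.636% and 0.0855%. Of the unannotated exons, 539 were called against WT in at least 1 mutant library, and 523 of these were uneven. Of the 488 with a host gene, 68 (13.93%) lay in genes of at least 500 CPM (gene counts scaled to the size of the library), against 6.039% of all unannotated exons with a host gene. For annotated even exons the shares were 0.7874% of those called and 3.03% of all. ARF1, a GTPase of Golgi transport, RPS2 and RPS3, both of the small ribosomal subunit, held exons of this kind. An unannotated ARF1 exon of 88 nt had 3.33, 2.63 and 4.41% in R625H, K666T and K700E, against 90.6% in WT, from 30, 38 and 68 reads, against 96. With all such exons, the rule for naming exons returned 61, of which 48 were unannotated and 6 were annotated and even. The named results below were therefore drawn from annotated even exons, a choice made after the values were seen.

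**Figure D2:**
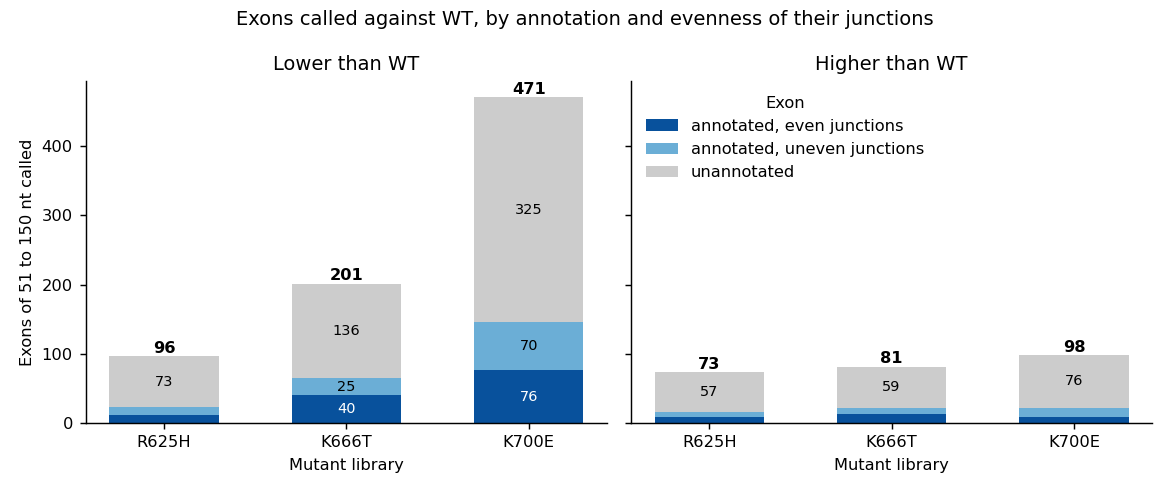
Number of exons of 51 to 150 nt called lower (left) or higher (right) in each mutant library than in WT; bars are stacked by whether the exon is annotated and whether its 2 inclusion junctions are within 2-fold of each other. Unannotated exons are the largest part of every bar, 325 of the 471 exons lower in K700E.

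The 8 exons printed above as lower are described first; they were picked after their values were seen and are not the 8 largest falls. EIF4A2, an RNA helicase that loads ribosomes on mRNA, is coded in part by an exon of 140 nt with 70.9, 65.6 and 64.7% inclusion in the 3 mutant libraries, against 81.9% in WT. The 95% Wilson intervals, which cover counting error only, were 68.2 to 73.4, 62.9 to 68.2 and 62.1 to 67.3%, against 79.6 to 83.9%. Skip reads numbered 334, 420 and 464 in the mutant libraries and 219 in WT, beside 812, 800 and 851 inclusion reads, against 988. The exon fell in all 3, by 11, 16.3 and 17.1 points, with adjusted p of 1.63e-07, 9.04e-17 and 1.52e-19 by Fisher's exact test. These p-values also cover counting error only, so with many reads they become small without any replicate check. The EIF4A2 exon had the most reads of any annotated even exon that fell in all 3 mutant libraries. The intervals of the mutant libraries do not meet that of WT. HDAC5, a class II histone deacetylase, followed with an exon of 134 nt at 80.3, 82.8 and 78.2%, against 93% in WT. The 95-nt exon of ABCD4 given above also fell in all 3.

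TBCE, a chaperone of alpha-tubulin, had an exon of 85 nt at 83.2, 79.8 and 82.2%, against 93.1% in WT. It fell in K666T and K700E, and its change in R625H, -9.93 points with an adjusted p of 7.17e-07 by Fisher's exact test, was just short of the 10 points a call needs; the position lies in more than 1 annotated gene, whose reads cannot be told apart. RNF4, a ubiquitin ligase that acts on SUMO chains, had 41, 24 and 38 skip reads for its exon of 80 nt in the mutant libraries, against 2 in WT. Inclusion was 88.9, 93.7 and 90.2%, against 99.4%, and it fell in R625H only, although all 3 adjusted p were at or under 0.0043. These exons had low skipping in WT and more in each mutant library.

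FNIP1, a partner of folliculin and AMP kinase, had the widest gap of the 8 in K666T. Its exon of 84 nt was at 64.8, 50.5 and 53.1%, against 81.2% in WT, from 88, 103 and 98 reads, against 85. It fell in K666T (adjusted p = 0.00136, Fisher's exact test) and in K700E (adjusted p = 0.00325), and the R625H value lay between. ACVR2A, a type II receptor for activin, had an exon of 139 nt at 86.7, 79.5 and 70.3%, against 96.3%, with 11, 18 and 35 skip reads, against 3. It fell in K666T and K700E. TRMT13, an enzyme that methylates tRNA, had 79.8, 76.8 and 68.6%, against 89.6%, for its exon of 70 nt, and also fell in K666T and K700E.

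Other exons fell in 1 mutant library. The 55-nt exon of GAS8, a subunit of the complex that regulates ciliary dynein, was at 79.8, 69.1 and 56.2%, against 81.2% in WT, and fell in K700E. The 57-nt exon of CLSTN1, a calsyntenin carried by kinesin, was at 39, 42.2 and 42.5%, against 50.1%, and fell in R625H. ROGDI, linked to the vacuolar proton pump, had a 55-nt exon at 59.3, 74.4 and 81.2%, against 82.8%, and fell in R625H. TPCN2, a calcium channel of endosomes and lysosomes, had 14, 6 and 6 skip reads, against 1, for its 77-nt exon, and fell in R625H from few reads (44 in R625H and 40 in WT). U2AF1L4, related to the small subunit of the factor that binds the acceptor, had an 88-nt exon at 64.9, 56.6 and 68.6%, against 83.6%, and fell in K666T; its gene was at 1.88, 1.9 and 2.05 CPM, against 1.32 CPM.

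Further exons that fell in K700E were picked after their values were seen, with no theme tested. MED1, the Mediator subunit that binds nuclear receptors, had an exon of 133 nt at 90.9, 88.9 and 84.3%, against 97.6% in WT, and fell in K700E only. EHMT1 and EHMT2 form the methyltransferase that marks histone H3 in silent chromatin, and an exon of each fell in K700E. That of EHMT1, of 64 nt, was at 82.7, 78.7 and 75.2%, against 85.9%, and that of EHMT2, of 102 nt, at 54.9, 57.9 and 55.6%, against 65.9%. MLX, a partner of glucose-sensing transcription factors, had an exon of 90 nt at 73.2, 69.6 and 65.1%, against 76.1%, from 1166, 1264 and 1766 reads, against 1229. ATXN3, a deubiquitinase, had an exon of 86 nt at 84.8, 83.4 and 80%, against 94%, and fell in K666T and K700E. AFTPH, of clathrin coats, had one of 61 nt at 82.3, 72.2 and 75.3%, against 93.4%, and fell in the same pair. In these 6 exons the 3 mutant libraries were under WT, whether or not the difference passed the test. The exons were picked for a fall and the 3 comparisons share the WT library, so this agreement is not independent.

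Exons that rose started from a lower level. ECT2, which activates RhoA for cytokinesis, had an exon of 93 nt at 40.4, 32.8 and 39.4%, against 22.1% in WT. Its intervals were 36.4 to 44.6, 28.8 to 36.9 and 35.7 to 43.2%, against 19.1 to 25.4%. It rose in all 3, with adjusted p of 3.63e-09, 0.00379 and 2.67e-09 by Fisher's exact test. Its host gene was level, at 177, 172 and 167 CPM, against 176 CPM. The junction to an unannotated acceptor 14 nt before this exon had 20, 8 and 18 reads, against 0 in WT. STAG2, a subunit of cohesin, had an exon of 111 nt at 38.5, 35.1 and 33.8%, against 26.9%, and rose in R625H. FMR1, an RNA-binding protein of translation control, had an exon of 63 nt at 35.4, 35.1 and 30.2%, against 25.1%, and rose in R625H. In K666T the FMR1 difference was just under 10 points, with an adjusted p of 0.00538.

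KTN1, the kinesin receptor kinectin, had an exon of 84 nt at 45.3, 50 and 39.6%, against 38.8% in WT, and rose in K666T. BCOR, a corepressor that binds BCL6, had a 54-nt exon at 69.5, 70.1 and 63.1%, against 58.8%, and rose in K666T. MFF, which recruits the mitochondrial fission GTPase, had a 75-nt exon at 33.2, 44.7 and 40.6%, against 32.7%, and rose in K666T. In K700E, BAG6 and MED15 rose as ECT2 did. The 108-nt exon of BAG6, a chaperone for tail-anchored proteins, was at 38.2, 40.4 and 45.2%, against 33.7%, and the 120-nt exon of MED15, a Mediator subunit, at 59.4, 57.7 and 64.9%, against 48.3%.

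**Figure D3:**
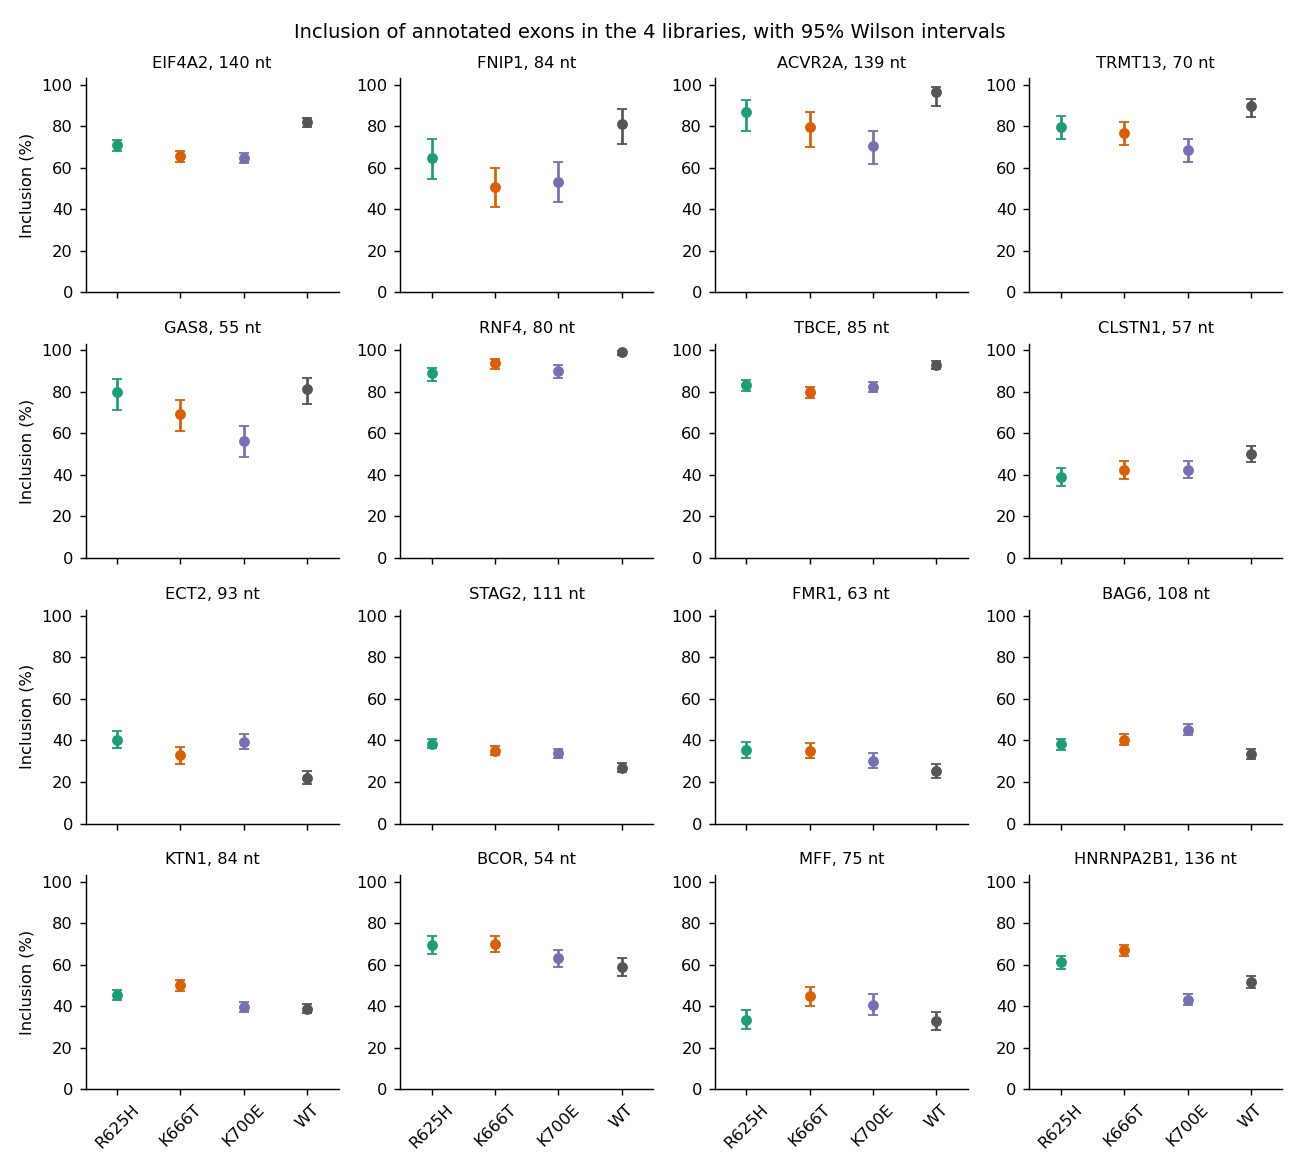
Percent inclusion of 16 annotated even exons in R625H, K666T, K700E and WT, with 95% Wilson intervals that cover counting error only (1 library each). The upper 8 exons were lower in at least 1 mutant library, such as EIF4A2 with 64.7% in K700E against 81.9% in WT; the lower 8 were higher in at least 1, such as ECT2 with 39.4% against 22.1%.

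Called coding exons were also compared by whether their length is a multiple of 3, and those that fell and those that rose went opposite ways. Of the coding even exons that fell, 2 of 11 in R625H, 8 of 35 in K666T and 16 of 69 in K700E (23.19%) had a length that is a multiple of 3, beside 43.67% of all coding even exons. Of those that rose in any mutant library, 10 of 11 had one, and POLB, at 58 nt, did not. Such lengths make up 74.47% of coding even exons at 30 to 50% mean inclusion and 62% at 50 to 70%, so the share among the 11 is not read as apart from that of their level. Since low inclusion goes with such lengths, the falls were also set beside exons in a shared band of level. The band of 50 to 95% does not hold level fixed, and its mean includes the mutant libraries. In it the WT median was 89.8% for multiples of 3 and 92.3% for other lengths. Of coding even exons with a mean inclusion of 50 to 95%, 16 of the 69 that fell in K700E had such a length, against 47.16% of the 2672 that did not. For K666T it was 8 of 35 (22.86%), against 46.86% of 2706, and for R625H 1 of 10, against 46.69% of 2731.

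The same split was seen over all exons of that band, called or not. Between 50 and 95% mean inclusion, 1465 exons had a length that is not a multiple of 3. Of these 70.51, 73.99 and 77.68% had lower inclusion in R625H, K666T and K700E than in WT, against 59.09, 62.77 and 67.71% of the 1276 exons with a multiple of 3. Their median change was -1.74, -2.32 and -3.11 points in the same order, against -0.88, -1.27 and -1.61 points. Read depth was close in both, with a median of 178 reads in K700E and 188 in WT for exons of other lengths and 180 and 186.5 reads for multiples of 3. At 10 to 30% mean inclusion the order was the other way: 37.93, 27.59 and 37.93% of 29 exons with another length were lower than in WT, against 50, 50 and 55.3% of 132 multiples of 3. At 30 to 50% it was mixed, with 50, 61.11 and 52.78% of 36 exons, against 43.81, 52.38 and 60% of 105. These shares come from the same 4 libraries and share WT, so they describe those libraries.

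**Figure D4:**
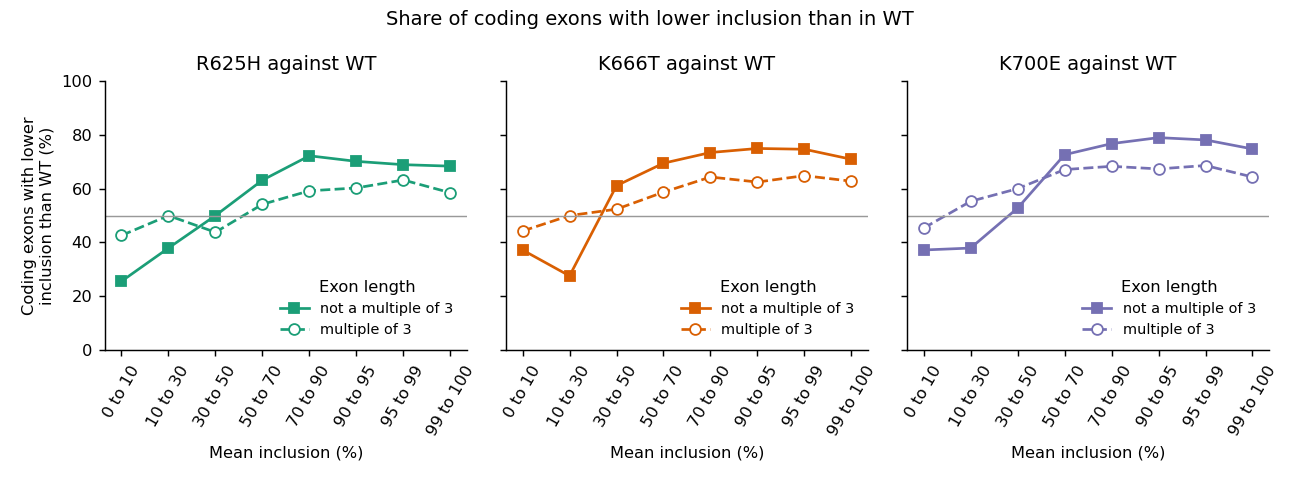
Percent of coding even exons with lower inclusion in R625H, K666T or K700E than in WT, by mean inclusion over the 4 libraries; filled squares are exons whose length is not a multiple of 3, open circles multiples of 3, and the grey line is at 50%. The squares lie above the circles from 50% inclusion upward and below them at up to 30%.

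Exons found in decay transcripts only were mostly at a slightly higher level in the mutant libraries. Of the 464 even decay exons, 324 (69.83%) were higher in R625H than in WT, 326 (70.26%) in K666T and 315 (67.89%) in K700E, with median changes of 0.372, 0.435 and 0.422 points. Below WT were 29.96, 29.09 and 31.9% of the 464. Annotated even exons of any class at 0 to 10% mean inclusion, which include decay exons of that level, were below WT in 33.56, 35.82 and 39.84% of 1019 cases. Coding even exons of that level hold no decay exon. Of these, 42.62, 44.26 and 45.36% of 183 multiples of 3 and 25.58, 37.21 and 37.21% of 43 other lengths were below WT. The direction was thus also seen outside decay exons, less strongly in the coding multiples of 3. Over all 1911 decay exons, even or not, 59.86, 58.66 and 57.35% were higher than in WT. The size of the median change is under 1 point, and among the 464 exons 0 rose and 0 fell in R625H, 4 rose and 1 fell in K666T, and 3 rose and 1 fell in K700E. HNRNPA2B1, an abundant hnRNP that binds pre-mRNA, had the deepest of them. Its exon of 136 nt was at 61.2, 66.9 and 43.1%, against 51.6% in WT, from 891, 1149 and 1446 reads, against 1004. It rose in K666T and its change in K700E was -8.51 points, under the size of a call. The gene was at 1760, 1820 and 2190 CPM, against 1820 CPM.

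The exons of CHD2, RCOR3 and NDUFAF5, which hold the stop codon themselves, rose in K700E. That of CHD2, a chromatin remodeller, is 113 nt long and was at 17.4, 14 and 22.1%, against 8.09% in WT. That of RCOR3, a partner of the LSD1 demethylase, is 133 nt long and was at 28.2, 33.3 and 46.3%, against 29%. That of NDUFAF5, an assembly factor of respiratory complex I, is 98 nt long and was at 33.2, 35.6 and 46.4%, against 25.4%. A coding exon of NDUFAF5, of 104 nt, fell in the same library, at 84.9, 87.8 and 78.7%, against 90.5%. The gene was at 22.3, 24 and 23.5 CPM, against 20.8 CPM.

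In K666T the decay exons of TIA1, TTC9C and THUMPD2 rose. TIA1, a protein that helps U1 snRNP to donors, had an exon of 119 nt at 10.8, 17.7 and 10.5%, against 7.17% in WT. PRPF4B, a kinase of the spliceosome, went the other way: its exon of 77 nt was at 70.3, 64.7 and 62.2%, against 77.1%, and fell in K666T and K700E. An exon of EIF4A2 of 111 nt, annotated in neither coding nor decay transcripts, rose in all 3 mutant libraries, at 49.4, 51.9 and 45.7%, against 34.8%. It lies at chr3:186506099-186506209, downstream of the 140-nt exon that fell. EIF4A2 was at 202, 200 and 209 CPM, against 186 CPM.

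Exons outside the coding sequence moved both ways. Of the 562 untranslated even exons, 3 rose and 0 fell in R625H, 1 rose and 2 fell in K666T, and 1 rose and 4 fell in K700E. In percent these are 0.5338 and 0, 0.1779 and 0.3559, and 0.1779 and 0.7117, beside 0.07149 and 0.08737, 0.1033 and 0.3177, and 0.07149 and 0.6037 over all annotated even exons. RHBDD2, a rhomboid-like membrane protein, had an exon of 122 nt at 33.4, 33.1 and 27.2%, against 19.9% in WT, and it rose in R625H and K666T. RLIM, a ubiquitin ligase, had one of 62 nt at 53.7, 45.7 and 45.2%, against 34.7%, and it rose in R625H. MRPL55, of the large mitochondrial ribosomal subunit, had one of 67 nt at 58.9, 58.8 and 67.1%, against 56.7%, and it rose in K700E, where it stood apart from the other 3 libraries. ARIH2, a ubiquitin ligase that works with cullins, had one of 122 nt at 50.5, 47.6 and 48.9%, against 60.1%, and it fell in K666T and K700E. GAA, the lysosomal alpha-glucosidase, and AURKA, a mitotic kinase, had untranslated exons that fell in K700E. That of GAA was at 43.4, 42.4 and 37.4%, against 49.8%, and that of AURKA at 42.1, 40.8 and 35.6%, against 47.1%. SNHG32, a host gene of small nucleolar RNAs, had an exon of 94 nt at 54.9, 50.9 and 55%, against 42.5%, and it rose in R625H and K700E.

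The size of a change went with the level of the exon. Annotated even exons with a mean inclusion of 70 to 90% changed by a mean of -1.79, -2.47 and -2.89 points in R625H, K666T and K700E, and those of 95 to 99% by -0.48, -0.68 and -0.85 points. Exons of 10 to 30% changed by 0.9, 1.05 and 0.42 points. Most falls lay in the 1281 exons of 70 to 90%: 7 of 11 in R625H, 30 of 40 in K666T and 51 of 76 in K700E. The bins use the same 4 libraries, and a mean of 95 to 99% leaves little room for a difference of 10 points, so where calls lie is largely fixed by the bin. Of the 4807 exons at 95 to 99%, 66.26, 70.19 and 73.87% had lower inclusion than WT.

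Flanking introns and exon ends were compared as descriptions. Of the 11 coding even exons that rose in any mutant library, 5 had an upstream intron of at most 200 nt (STAG2 with 89 nt, ECT2 with 108 nt, BAG6 with 110 nt, HPS4 with 121 nt and KTN1 with 159 nt). This was true of 12.62% of all coding even exons, whose median upstream intron was 1651.5 nt. It was true of 18.18, 8.571 and 11.59% of the 11, 35 and 69 that fell in R625H, K666T and K700E. A downstream intron of at most 200 nt was found for 1 of the 11 that rose, against 13.1% of all. The cut of 200 nt was not planned. The median G and C content of the exons that fell was 53.5, 50.8 and 53% in R625H, K666T and K700E, beside 50.8% in all coding even exons of 50 to 95% inclusion. A final G is the usual last base before a donor. It was present in 81.82, 82.86 and 86.96% of the 11, 35 and 69 exons that fell in R625H, K666T and K700E. Of the 2741 coding even exons of 50 to 95% inclusion, 79.97% had it. The skip junction was itself annotated for 66.67% of the 69 exons. Of these 34 had a WT inclusion of 50 to 90% and 35 of 90 to 99%, levels at which the share over all coding even exons was 74.56% and 39.29%.

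Unannotated acceptors a short way upstream of annotated ones also had more reads in the mutant libraries. This is the best known effect of SF3B1 mutations, in which an acceptor a short way upstream of the usual one is taken. At 1910 junctions to an acceptor 10 to 30 nt upstream of an annotated one, summed unique reads came to 135, 96.8 and 123 CPM of unique junction reads in R625H, K666T and K700E, against 62.5 in WT. They were also higher in all 3 at 1 to 9 nt upstream (56.9, 44.6 and 48.2, against 41.6) and at 31 to 100 nt upstream (32, 38.6 and 39.6, against 25.2). At 1476 junctions 10 to 30 nt downstream they came to 240, 296 and 291, against 256, and at 1937 junctions 31 to 100 nt downstream to 445, 407 and 353, against 379. Junctions with at least 10 reads in a mutant library and at most 2 in WT numbered 63, 38 and 50 at 10 to 30 nt upstream and 129, 139 and 140 at 10 to 30 nt downstream, and this comparison has no test. Junctions with at least 10 reads in WT and at most 2 in every mutant library numbered 7 upstream and 63 downstream at these distances. That rule is stricter, since all 3 mutant libraries had to be low and not only 1. Its counts are therefore not a like-for-like reverse of the others. CCT5, a subunit of the TRiC chaperonin, had 66, 55 and 36 reads on an acceptor 22 nt upstream of an exon, against 0 in WT, and KPNB1, the importin beta of nuclear import, 30, 14 and 13 reads on one 23 nt upstream, against 0. CC2D1A, a repressor of serotonin receptor genes, had 40, 32 and 32 reads on one 15 nt upstream, against 0. CCT5, KPNB1 and CC2D1A were picked from junctions with many reads in each mutant library and few in WT, so their contrast follows from that choice.

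Gene lists of 12 functions were counted over annotated even exons, of which 0.08737, 0.3177 and 0.6037% fell and 0.07149, 0.1033 and 0.07149% rose in R625H, K666T and K700E, with median changes of -0.191, -0.296 and -0.425 points. Splicing factors held 318 exons, of which 0 were called in R625H, 5 fell and 2 rose in K666T, and 2 fell and 0 rose in K700E. Those that fell in K666T included RBM5, which represses exons of apoptosis genes, with an exon of 85 nt at 82.9, 78.4 and 81.1%, against 90.5%. Its adjusted p in K700E was 0.0053, with a change of -9.41 points. Membrane trafficking genes held 578 exons and 6 fell in K700E (1.038%, beside 0.6037% over all), with none called in R625H or K666T. One was in TRAPPC10, a subunit of a complex that tethers vesicles at the Golgi, whose exon of 142 nt was at 93.3, 91.5 and 86.6%, against 97.4% in WT. Kinases and phosphatases held 583 exons, and 1, 1 and 5 fell. STK16, a kinase of the Golgi, was one of the 5, with an exon of 134 nt at 71.7, 72.8 and 63.4%, against 81.3%.

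Centrosome and cilium genes held 269 exons, and 4 fell in K700E (1.487%, beside 0.6037% over all), with a median change over the list of -0.4, -0.79 and -1.39 points in R625H, K666T and K700E, beside -0.191, -0.296 and -0.425 points over all. CLUAP1, a subunit of the intraflagellar transport complex B, had 15, 19 and 27 skip reads, against 5, for its exon of 73 nt, and fell in K700E at 87%, against 97.7%. WDR35, of the intraflagellar transport complex A, had an exon of 61 nt at 84.3, 83.6 and 73.7%, against 92%. In the other lists, DNA repair held 241 exons with 0, 1 and 1 falls, chromatin 370 with 1, 2 and 3, ubiquitin 523 with 2, 1 and 4, mitochondria 591 with 0, 1 and 3, and cell cycle 382 with 0, 0 and 1. Rises in the same order of libraries were 1, 0 and 0 in DNA repair, 0, 0 and 2 in chromatin (CHD2 and RCOR3), 1, 0 and 0 in ubiquitin, 0, 1 and 2 in mitochondria and 2, 1 and 1 in cell cycle. Genes of nonsense-mediated decay and RNA turnover held 154 exons and those of the interferon response 32, and Fisher's exact test called 0 in either. Known SF3B1 targets held 71, with 0, 0 and 2 falls (2.817% in K700E, beside 0.6037% over all). The 71 leave out unannotated exons. Over all 351 exons of these genes, annotated or not, 4, 4 and 8 fell and 6, 6 and 8 rose. In percent these are 1.14, 1.14 and 2.279 lower and 1.709, 1.709 and 2.279 higher. Over all 48840 exons the shares were 0.1966, 0.4115 and 0.9644% lower and 0.1495, 0.1658 and 0.2007% higher. With so few calls per list, no list is read as apart from the others.

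Mutant libraries were also set against each other. Of all 48840 exons, 21 were higher and 24 lower in R625H than in K666T, beside 0.069 and 0.0517% of the exons of all lengths. Between R625H and K700E 150 were higher and 53 lower in R625H, beside 0.342 and 0.133%, and between K666T and K700E 94 were higher and 43 lower in K666T, beside 0.211 and 0.123%. Among annotated even exons, 1 was higher and 0 lower in R625H than in K666T, 13 higher and 6 lower in R625H than in K700E, and 14 higher and 2 lower in K666T than in K700E. The backgrounds over annotated even exons of all lengths were 0.0107% higher and 0.0% lower in R625H than in K666T, 0.118 and 0.0427% in R625H against K700E, and 0.0908 and 0.0214% in K666T against K700E. The single exon between R625H and K666T was that of PLEKHM2, which links lysosomes to kinesin, with 91 nt and 93% in R625H, against 81.9% in K666T. HNRNPA2B1 gave the deepest difference: its 136-nt exon was 18.1 points higher in R625H than in K700E (adjusted p = 1.99e-14, Fisher's exact test) and 23.8 points higher in K666T than in K700E (adjusted p = 2.2e-30). CLK4, a kinase of SR proteins, had an exon of 91 nt at 54.8% in R625H, 62% in K666T and 73.7% in K700E, with 60.2% in WT, and R625H differed from K700E (adjusted p = 0.00499, Fisher's exact test).

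In 13 of the exons apart between R625H and K700E and in 14 of those between K666T and K700E, inclusion was the lower one in K700E. NVL, an ATPase of ribosome assembly, had a 74-nt exon at 81.2% in R625H and 76.3% in K666T, against 67.3% in K700E, with 79.5% in WT. Its reads numbered 553, 628 and 1235, with 523 in WT. MTX1, of mitochondrial protein import, had a 93-nt exon at 82.4 and 80.6%, against 67.9%, with 76.1% in WT, and its gene was at 36.3 and 37.6 CPM, against 59.1 CPM, with 39.8 CPM in WT. SPATA7, CDC42BPB and RBM41 had exons that were higher in K666T than in K700E, with 72.7, 60.1 and 65.5% in K666T, against 40.5, 42.9 and 49.1% in K700E. VARS2, the mitochondrial valyl-tRNA synthetase, went the other way with an exon of 128 nt at 76.8% in R625H and 74.9% in K666T, against 89.7% in K700E. K700E had 2000 ng of plasmid and the other 2 mutants 1000 ng, so mutation and amount cannot be told apart in these comparisons.

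Shorter and longer cassette exons gave the frame for these values. Annotated even exons of 10 to 50 nt changed by a mean of 0.268, -0.047 and -0.402 points in R625H, K666T and K700E, those of 51 to 150 nt by -0.468, -0.656 and -0.942 points, and the longer ones up to 500 nt by -0.856, -0.933 and -1.205 points. The share that fell in K700E was 0.6707, 0.6037 and 0.7111% in the same order of length. The difference between length classes was not tested, since exons are not replicates.

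The libraries held 65939159 to 71945311 unique junction reads and 82254731 to 90939945 gene reads. The median exon had 259, 275 and 285 reads in R625H, K666T and K700E, against 282 in WT. For the 129 annotated even exons called against WT, the median width of the Wilson interval was 9.83, 9.62 and 10.1 points, against 7.78. SF3B1 was at 506 to 521 CPM in all libraries, a level that does not check the vectors because reads of the vector and of the gene were not separated. Of the HEK293T genes looked for, VIM, NES, NEFM, INA, KRT8, KRT18, CDH2 and GATA2 were at 24.8 to 660 CPM, while PTPRC, CD3E, HBB, ALB, APOA1, INS and MYH7, which mark blood, liver, pancreas and muscle, were at 0 to 0.422 CPM. COL1A1 and COL3A1, looked for as fibroblast genes, were at 5.59 to 24.8 CPM, so COL1A1 reached the lowest level of NES. NEFL was also looked for and has no value here.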

How the data were processed

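The authors deposited 2 tables of raw counts for each library, one over genes and one over splice junctions with unique and multi-mapped reads apart, made with STAR 2.5.3a on hg19 (GRCh37) per the submitters' processing notes, which also name HTSeq without its role; the longest overhang per junction was not used. Genes were scaled to CPM from the opposite-strand counts (column 4), without the 4 summary rows.

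Percent inclusion was inclusion reads over inclusion and skip reads, from unique reads of junctions with motif codes 1 to 6. Each pair of libraries was compared exon by exon with a two-sided Fisher's exact test, computed in Python with numba 0.67.0 and adjusted by Benjamini-Hochberg over 92777 exons. The test compares libraries, not conditions. Wilson intervals (scipy 1.17.1) cover counting error only, and PCR copies are not independent molecules.

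Genes, exon classes and sequences come from GENCODE release 29, matched to hg19 junctions by the order and length of introns; only hg19 positions are printed. The authors' own annotation release is not known here.

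The exons and gene lists were chosen with earlier results of these data known. The naming rule took, for each mutant against WT, the 12 exons with the largest fall and the 8 with the largest rise, up to 12 called in all 3 mutants, the 5 largest in each direction between mutants, called exons of the gene lists and the 5 with most reads. It returned mostly unannotated exons with uneven junctions, so exons named here are mostly annotated even ones, chosen after their values were seen. Alternatives covered read minimum, junction choice, annotation, overlap, size of difference and test.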

Additional observations from a re-analysis of the deposited data

How the results depend on the processing

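None of the 6 mean changes changed sign under the 14 alternatives. The settings of 5 points, 20 points, joint adjustment and the z test change calls only, so they could not alter a mean. Under each of the 14 alternatives more exons were lower than higher in K666T and in K700E than in WT. In R625H the order of lower and higher was not kept: 10 against 16 over even junctions, 48 against 59 with the smaller junction, 24 against 28 with 1 exon per shared junction, 146 against 153 with multi-mapped reads added and 15 against 18 with the z test. No library could be left out, since each vector had 1, and depth limits exons with few skip reads. The cause of the differences between settings was not tested. No paired analysis was possible because each vector had 1 library, so only 1 replicate number was shared. For a mean, the interval used below covers counting error, and for a median it comes from the ranks of the exons. Both treat exons as independent, although 76.6% of the 48840 exons share a junction with another. They may thus be too narrow, and a move beyond them is not a test. Counts that moved by over 1.5 times, and means and medians that moved beyond the interval of the value, were as follows. With at least 50 reads in each library, the counts were 13 higher and 14 lower in R625H than in K666T, and the mean change was -0.435 for K666T minus WT, -0.748 for K700E minus WT, 0.465 for R625H minus K700E and 0.313 for K666T minus K700E, and the median inclusion was 89.51% in R625H, 88.89% in K666T, 88.1% in K700E and 91.1% in WT. With at least 10 reads in each library, the mean change was -0.51 for K666T minus WT, -0.895 for K700E minus WT, 0.574 for R625H minus K700E and 0.384 for K666T minus K700E, and the median inclusion was 81.47% in R625H, 80.95% in K666T, 79.67% in K700E and 83.44% in WT. With the smaller inclusion junction as inclusion reads, the counts were 48 lower in R625H than in WT, 87 lower in K666T than in WT, 63 higher and 213 lower in K700E than in WT, 13 higher and 9 lower in R625H than in K666T, 83 higher and 31 lower in R625H than in K700E and 49 higher and 18 lower in K666T than in K700E, and the mean change was -0.269 for R625H minus WT, -0.518 for K666T minus WT, -0.94 for K700E minus WT, 0.249 for R625H minus K666T, 0.671 for R625H minus K700E and 0.422 for K666T minus K700E, and the median inclusion was 86.04% in R625H and 84.61% in K700E. With the larger inclusion junction tested and both summed for the share, the counts were 152 lower in R625H than in WT, 150 higher in K700E than in WT, 33 higher and 38 lower in R625H than in K666T, 235 higher and 87 lower in R625H than in K700E and 173 higher and 66 lower in K666T than in K700E, and the mean change was -0.516 for K666T minus WT and -0.869 for K700E minus WT, and the median inclusion was 84.21% in R625H, 83.66% in K666T, 82.5% in K700E and 86.29% in WT. With multi-mapped reads added, the counts were 153 higher and 146 lower in R625H than in WT, 159 higher in K666T than in WT, 244 higher in K700E than in WT, 88 higher and 110 lower in R625H than in K666T, 270 higher and 172 lower in R625H than in K700E and 231 higher and 128 lower in K666T than in K700E, and the mean change was -0.206 for R625H minus WT, -0.332 for K666T minus WT, -0.668 for K700E minus WT, 0.126 for R625H minus K666T and 0.463 for R625H minus K700E, and the median inclusion was 77.23% in R625H, 76.85% in K666T, 75.75% in K700E and 79.09% in WT. With all skip junctions summed, the counts were 111 higher and 252 lower in R625H than in WT, 476 lower in K666T than in WT, 1014 lower in K700E than in WT, 95 higher and 54 lower in R625H than in K666T, 308 higher and 95 lower in R625H than in K700E and 249 higher and 98 lower in K666T than in K700E, and the mean change was -0.593 for R625H minus WT, -0.869 for K666T minus WT, -1.34 for K700E minus WT, 0.276 for R625H minus K666T, 0.749 for R625H minus K700E and 0.473 for K666T minus K700E, and the median inclusion was 73.92% in R625H, 73.08% in K666T, 71.25% in K700E and 76.92% in WT. Over exons with even inclusion junctions, the counts were 16 higher and 10 lower in R625H than in WT, 17 higher and 42 lower in K666T than in WT, 16 higher and 75 lower in K700E than in WT, 1 higher and 0 lower in R625H than in K666T, 11 higher and 3 lower in R625H than in K700E and 13 higher and 1 lower in K666T than in K700E, and the mean change was -0.723 for K700E minus WT, 0.41 for R625H minus K700E and 0.237 for K666T minus K700E, and the median inclusion was 95.57% in R625H, 95.22% in K666T, 94.89% in K700E and 96.33% in WT. With 1 exon for each set that shares a junction, the counts were 28 higher and 24 lower in R625H than in WT, 32 higher and 56 lower in K666T than in WT, 38 higher and 113 lower in K700E than in WT, 3 higher and 7 lower in R625H than in K666T, 27 higher and 13 lower in R625H than in K700E and 28 higher and 9 lower in K666T than in K700E, and the mean change was -0.156 for R625H minus WT, -0.313 for K666T minus WT, -0.566 for K700E minus WT, 0.411 for R625H minus K700E and 0.253 for K666T minus K700E, and the median inclusion was 82.19% in R625H, 81.82% in K666T, 80.87% in K700E and 84.22% in WT. Over exons with both ends annotated, the counts were 15 higher and 22 lower in R625H than in WT, 21 higher and 61 lower in K666T than in WT, 22 higher and 140 lower in K700E than in WT, 2 higher and 1 lower in R625H than in K666T, 30 higher and 9 lower in R625H than in K700E and 25 higher and 8 lower in K666T than in K700E, and the mean change was -0.405 for R625H minus WT, -0.594 for K666T minus WT, -0.906 for K700E minus WT and 0.312 for K666T minus K700E, and the median inclusion was 95.24% in R625H, 94.97% in K666T, 94.62% in K700E and 96.17% in WT. With a minimum of 5 points, the counts were 121 higher and 154 lower in R625H than in WT, 159 higher and 418 lower in K666T than in WT, 177 higher and 953 lower in K700E than in WT, 34 higher in R625H than in K666T, 282 higher in R625H than in K700E and 184 higher and 66 lower in K666T than in K700E. With a minimum of 20 points, the counts were 36 higher and 43 lower in R625H than in WT, 43 higher and 63 lower in K666T than in WT, 44 higher and 133 lower in K700E than in WT, 49 higher and 21 lower in R625H than in K700E and 37 higher and 18 lower in K666T than in K700E. With p-values adjusted over all 6 comparisons together, the counts were 42 higher and 38 lower in R625H than in K666T. With a z test that allows overdispersion (rho 0.01), the counts were 18 higher and 15 lower in R625H than in WT, 12 higher and 17 lower in K666T than in WT, 14 higher and 26 lower in K700E than in WT, 12 lower in R625H than in K666T, 14 higher and 11 lower in R625H than in K700E and 11 higher and 4 lower in K666T than in K700E. Over annotated even exons, an alternative chosen after seeing the data in which p-values were adjusted over the 18722 annotated even exons of 10 to 500 nt and not over all 92777 exons, the counts were 9 higher and 10 lower in R625H than in WT, 13 higher and 40 lower in K666T than in WT, 10 higher and 79 lower in K700E than in WT, 1 higher and 0 lower in R625H than in K666T, 9 higher and 3 lower in R625H than in K700E and 13 higher and 1 lower in K666T than in K700E, and the mean change was -0.468 for R625H minus WT, -0.656 for K666T minus WT, -0.942 for K700E minus WT, 0.474 for R625H minus K700E and 0.286 for K666T minus K700E, and the median inclusion was 97.04% in R625H, 96.79% in K666T, 96.62% in K700E and 97.68% in WT.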
